A study of Mus musculus with 6 samples.

Results

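The genes described here are 9 transcription regulators of spermiogenesis, the stage at which round haploid spermatids are remodelled into sperm: Mybl1, Rfx1, Rfx2, Rfx3, Crem, Sox30, Tbpl1, Taf7l and Brdt. They were chosen by symbol, and each of the 9 matched 1 of the 57010 gene IDs of the count table. The data are RNA counts from immunoprecipitates made with an antibody to PNMA4 from dense, particle-containing fractions of testis lysate, and PNMA4 (gene symbol Moap1) is a capsid-like protein whose gene derives from a retrotransposon. All libraries came from mice aged 3 months, each from 1 lysate pooled from 8 testes. The wild-type group (labelled C57BL/6J) has 3 libraries, called wild type 1 to 3. The group lacking PNMA4 has 3 libraries of 2 genotypes: replicates 1 and 2 are from Pnma4 knockout mice (Pnma4-/-), and replicate 3 is from double knockout mice (Pnma1-/- Pnma4-/-). The strain of the knockouts is not given in the sources used here. Input RNA was not analysed here, and a level below is thus an abundance in the immunoprecipitate rather than an enrichment over testis.

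Spermatids switch on a large haploid programme and then store many of its transcripts for later translation. A-MYB (encoded by Mybl1) opens this sequence in meiotic cells, where it drives meiotic genes and genes of the piRNA pathway. RFX proteins bind the X-box of cilium and flagellum genes, CREM binds cyclic AMP response elements of late spermatid genes such as those of protamines, and SOX30 is needed for the haploid programme at the round spermatid stage. TBPL1 (also called TRF2) and TAF7L are relatives of the general factors TBP and TAF7, and BRDT is the testis bromodomain protein that reads acetylated histones. The comparison asks whether messages of these regulators were recovered at a different level when PNMA4, the protein targeted by the antibody, was present.

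The libraries were checked before the genes were compared. Total counts ran from 3138657 to 6367930, and the 9 regulators together held 2591 to 8451 counts of a library. Moap1 had 7, 26 and 27 counts in wild type and 0 in each library lacking PNMA4, and Pnma1 had 0 counts in the double knockout alone, as the labels require. Germ cell markers were detected in all stages (8 of 8 spermatogonial, 10 of 10 spermatocyte, 8 of 8 round spermatid and 10 of 10 elongating spermatid markers). Detected here means at least 1 count over all libraries together. Nanos3 and Sohlh1 of the spermatogonial list were too low for the test. So were Amh and Fshr of the Sertoli cell list, Des of the stromal list and Cd68, C1qa and C1qb of the macrophage list. Libraries stood apart in composition. The ribosomal RNA-like gene Rn18s-rs5 took 57.5% of the double knockout's counts and 27.3% to 36.1% elsewhere. Leydig cell markers (9 detected of 9) summed to 408 CPM in the double knockout and 188 ± 23.7 CPM in the other 5 libraries (SD, n = 5). Much of this came from Cyp17a1 (128 against 32.1 to 55.2 CPM), Cyp11a1 (69.6 against 22.3 to 28.1) and Insl3 (61.5 against 10.6 to 28.9). Hsd3b1, Lhcgr and Hsd17b3 were also highest in the double knockout. Star, Scarb1 and Fdx1 lay there within the range of the other libraries. In the double knockout and the other 5 libraries, Sertoli cell markers (11 detected of 11) summed to 401 and 234 ± 40.3 CPM. Every tested Sertoli marker but Trf was highest in the double knockout, with Clu at 190 CPM against 62.8 to 132 CPM elsewhere. Peritubular and stromal markers (7 of 7) summed to 85.3 and 45.6 ± 4.30 CPM. Macrophage markers (7 of 7) summed to 31.8 and 23.5 ± 3.71 CPM, with 29.5 CPM in replicate 1 lacking PNMA4. Among germ cell lists, the spermatogonial sum was also higher in the double knockout, at 80.9 against 57.0 ± 2.46 CPM. This rested on Kit, at 46.5 CPM in the double knockout and 18.1 to 24.3 CPM elsewhere. Zbtb16 and Sohlh1 were at their lowest in the double knockout. Of 6 epididymis markers, Lcn5 and Defb41 were at 0 in every library, and the sum was 7.42 to 11.3 CPM in wild type and 13.7 to 26.8 CPM in the libraries lacking PNMA4. This sum rested on Cst8 and Crisp1, with 1 count of Cst11 and 2 of Spink8, and Crisp1 was lower in wild type (0.440 ± 0.254 against 5.79 ± 2.56 CPM, SD, n = 3 each, edgeR adjusted p = 0.0024). The part of these marker levels in the comparison of the groups was not tested. Wild type 2 held 0.751% of its counts in Lars2, counted here with the ribosomal RNA-like genes, against 4.34% to 10.8% elsewhere. Fewer cells of a type and less RNA per cell cannot be told apart in such bulk material. Because input RNA was not analysed, a differing recovery in the immunoprecipitate cannot be told apart from these either. The marker sums thus do not measure the cell make-up of the testes.

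None of the 9 regulators differed between wild type and the group lacking PNMA4 in the edgeR quasi-likelihood test. All 9 passed the filter on low counts, 0 of 9 passed at an adjusted p of 0.05, and 0.0596% of the 13413 genes tested did so (0.0224% higher and 0.0373% lower in wild type). At an unadjusted p under 0.05 there were also 0 of 9, beside 2.92% of all genes tested, and DESeq2 and limma-voom called 0 of 9 as well. The groups overlapped for every member, where 6.69% of genes tested had groups that did not overlap (3.28% with wild type above, 3.41% with wild type below). Log2 fold changes (wild type over lacking PNMA4) ran from −0.15 to 0.19, with 5 above and 4 below 0, and the lowest adjusted p was 1.00. The median was 0.0036 over the 9 and 0.012 over all genes tested. The median size of the difference, sign aside, was 0.072 over the 9 and 0.18 over all genes. For all 9 the 95% interval lay within 1 of 0, so a 2-fold difference relative to the bulk of genes was outside it in either direction, and 71.1% of all genes tested had such an interval. The widest bounds were −0.58 and 0.67, or 0.668-fold and 1.59-fold. Differences within a gene's own interval were not excluded. The intervals are not adjusted for the number of genes tested, whereas the calls are. Each interval uses a spread that edgeR moderates with information shared across the genes tested. Bounds from a gene's own libraries alone were not computed.

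**Figure D1:**
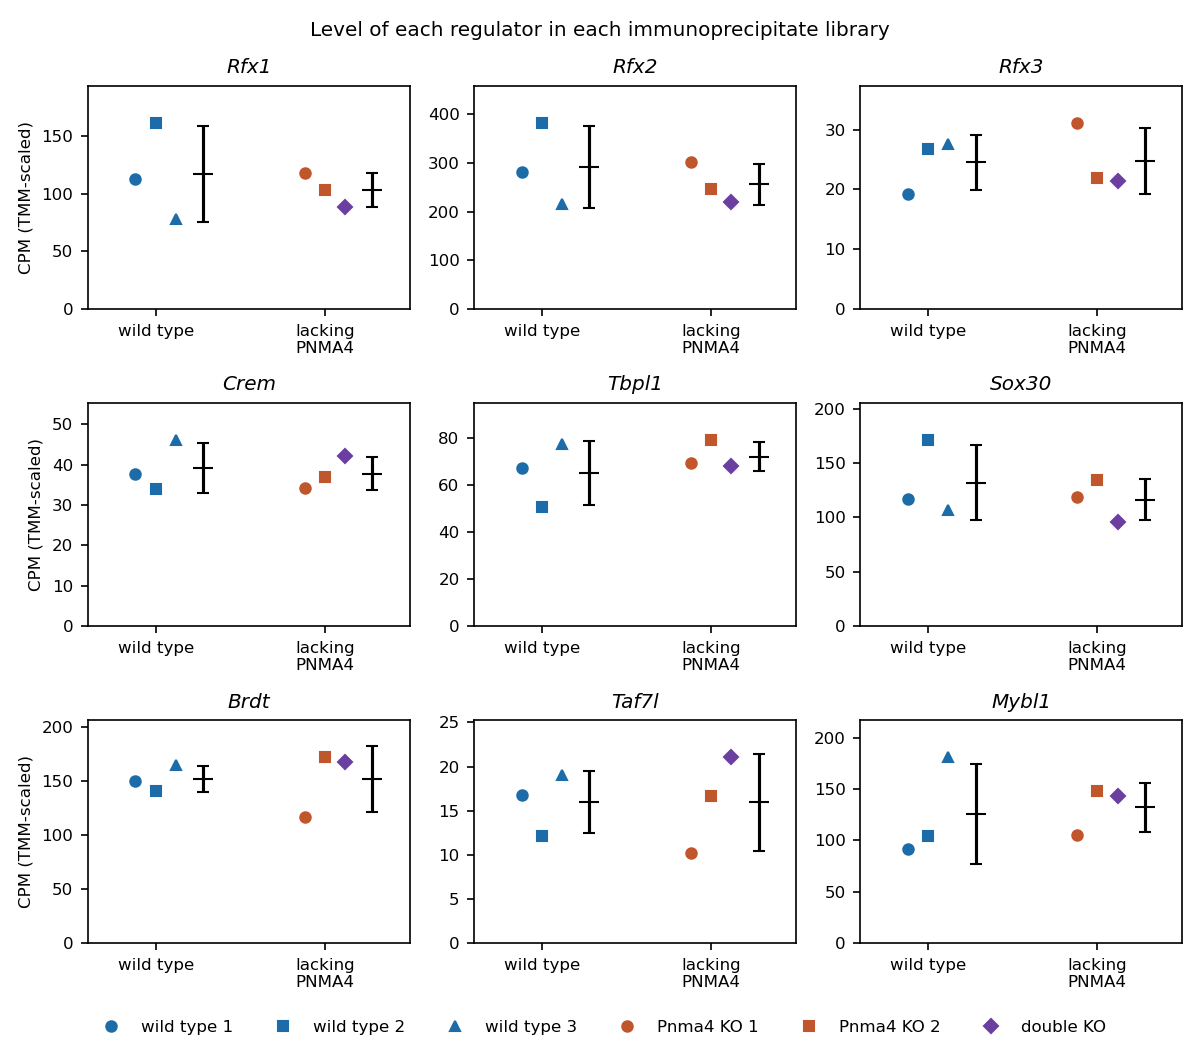
Level of each of the 9 regulators, as CPM of the TMM-scaled library size on a linear axis from 0, in each of the 6 libraries. Points are libraries, and the black dash and bar give the mean ± SD of each group of 3; the groups overlap in every panel, and wild type 2 is the highest library for Rfx1, Rfx2 and Sox30.

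The regulator at the head of the sequence, Mybl1, varied among wild-type libraries more than between the groups. Mybl1 (ENSMUSG00000025912, chromosome 1, 9667407 to 9700439 in GRCm38.p6) stood at 91.7, 104 and 181 CPM in wild type 1 to 3, at 105 and 148 CPM in the Pnma4 knockouts and at 143 CPM in the double knockout. CPM here are counts scaled to a common library size, corrected by TMM, a factor that sets the bulk of genes level between libraries. Wild type 3 was the highest of the 6 libraries and wild type 1 the lowest, so the wild-type group enclosed the other. The group means were 125 ± 48.4 and 132 ± 23.8 CPM (wild type first, SD, n = 3 each), a log2 fold change of −0.07 with a standard error of 0.24.

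Rfx1, Rfx2 and Sox30 shared 1 order over the wild-type libraries, with wild type 2 far above wild type 3. RFX1 and RFX2 are closely related winged-helix factors, and RFX2 is needed in spermatids for growth of the flagellum. Rfx2 (ENSMUSG00000024206, chromosome 17, 56775897 to 56831008) had the most counts of the 9, with 8778 over all libraries. It stood at 280, 381 and 215 CPM in wild type 1 to 3, at 301 and 247 CPM in the Pnma4 knockouts and at 220 CPM in the double knockout. The wild-type libraries again held both the highest and the lowest value. The group means were 292 ± 83.9 and 256 ± 41.3 CPM (SD, n = 3 each), a log2 fold change of 0.19 with a 95% interval from −0.28 to 0.66.

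Rfx1 (ENSMUSG00000031706, chromosome 8, 84063564 to 84097001) stood at 112, 161 and 78.0 CPM in wild type 1 to 3 and at 118, 103 and 87.9 CPM in replicates 1 to 3 without PNMA4. Its highest library was 2.06 times its lowest, and both were of wild type. The log2 fold change was 0.19, with a 95% interval from −0.30 to 0.67, the widest upper bound of the 9. Sox30 (ENSMUSG00000040489, chromosome 11, 45979069 to 46017992) encodes an HMG-box factor. It stood at 117, 171 and 107 CPM in wild type and at 119, 134 and 96.0 CPM without PNMA4. Here the double knockout was the lowest library and wild type 2 the highest. The log2 fold change was 0.18 (95% interval −0.28 to 0.63).

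The positive sign of these 3 genes came from 1 library. Wild type 2 was 1.69-fold (Rfx1), 1.54-fold (Rfx2) and 1.53-fold (Sox30) above the mean of wild type 1 and 3 in CPM. These 3 of the 9 passed 1.5-fold upwards, which 6.34% of all genes tested did. None passed 1.5-fold downwards, which 12.4% of all genes did. Without wild type 2 the log2 fold changes were −0.11 for Rfx1, −0.04 for Rfx2 and −0.05 for Sox30. The low Lars2 share of wild type 2, given above, is a feature of the same library, and its part in these levels was not tested. The 3 genes were singled out after their values were seen.

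Because Rfx1, Rfx2 and Sox30 shared an order over the wild-type libraries, though not over the libraries lacking PNMA4, the 250 bases before 1 listed transcription start of each are shown, read from the RefSeq promoter table of GRCm38.p6, 5′ to 3′ on the strand of the gene. The table held a window for 7 of the 9 genes. Capitals mark exact matches on either strand to textbook core motifs of the regulators themselves: the RFX core GTTGCC, the cyclic AMP response element TGACGTCA and its core TGACG, and the MYB sites AACTG and AACGG. The Rfx2 window is chr17:56831009-56831258 (minus strand), that of Rfx1 is chr8:84066586-84066835 (plus strand) and that of Sox30 is chr11:45980060-45980309 (plus strand). The Rfx2 window lies just outside the RefSeq gene span, whereas the Rfx1 window begins 3022 bases and the Sox30 window 991 bases inside it, so the spans of these genes start upstream of the windows shown.
Rfx2: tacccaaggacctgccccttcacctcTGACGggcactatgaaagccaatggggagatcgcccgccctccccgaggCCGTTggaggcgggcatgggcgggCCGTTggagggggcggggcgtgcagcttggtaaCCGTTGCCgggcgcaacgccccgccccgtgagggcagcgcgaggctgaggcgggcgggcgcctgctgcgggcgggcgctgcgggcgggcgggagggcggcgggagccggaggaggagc
Rfx1: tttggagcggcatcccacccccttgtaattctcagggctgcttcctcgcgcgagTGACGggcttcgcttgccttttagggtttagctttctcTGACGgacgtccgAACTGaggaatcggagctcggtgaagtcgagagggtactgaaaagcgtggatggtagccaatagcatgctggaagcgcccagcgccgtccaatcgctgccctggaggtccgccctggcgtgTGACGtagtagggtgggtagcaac
Sox30: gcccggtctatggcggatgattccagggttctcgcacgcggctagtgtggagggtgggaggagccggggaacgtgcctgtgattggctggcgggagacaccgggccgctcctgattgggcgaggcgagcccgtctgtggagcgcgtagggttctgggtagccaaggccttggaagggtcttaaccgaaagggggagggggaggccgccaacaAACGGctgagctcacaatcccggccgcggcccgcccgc

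The Rfx2 window held the MYB site AACGG at 3 places, all on the opposite strand, with first bases 175, 151 and 118 before the start. The last of these overlaps the RFX core, which lies 116 to 111 bases before the start. The Sox30 window held AACGG at 1 place, 38 to 34 bases before the start. The Rfx1 window held AACTG at 1 place and the core TGACG at 3 places, the nearest 24 to 20 bases before the start, and the Rfx2 window held TGACG at 1 place. The full element TGACGTCA was in none of the 3 windows. MYB sites were not particular to these genes: 6 of the 7 member windows held AACTG or AACGG, those of Rfx3, Tbpl1 and Taf7l included, as did 48.6% of all windows in the table. Of 32851 windows of the same length in the table, 14.5% held AACGG on either strand, 39.1% AACTG, 17.8% TGACG, 10.4% GTTGCC and 1.55% TGACGTCA. The share of G and C bases had a median of 52.4% over all windows. It was 76.0% in the Rfx2, 68.0% in the Sox30 and 59.2% in the Rfx1 window, and the motif shares were not matched for it. A match describes letters in a window and is not a measured binding site, and RNA of immunoprecipitates does not measure promoter activity.

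**Figure D2:**
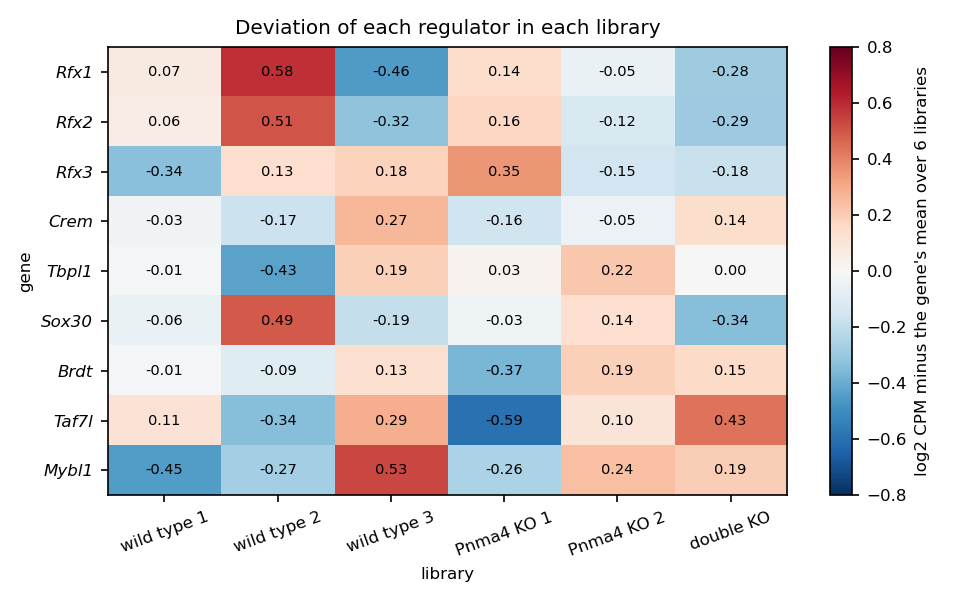
Deviation of each regulator (rows) in each library (columns), as log2 CPM minus the gene's mean over the 6 libraries, with the value printed in each cell. Wild type 2 is the highest library for Rfx1 (0.58), Rfx2 (0.51) and Sox30 (0.49) and the lowest for Tbpl1 (−0.43) and Crem (−0.17).

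Rfx3 did not follow Rfx1 and Rfx2. RFX3 directs genes of motile and primary cilia in many tissues. Rfx3 (ENSMUSG00000040929, chromosome 19, 27761721 to 28014669) stood at 19.2, 26.7 and 27.7 CPM in wild type and at 31.1, 21.9 and 21.4 CPM without PNMA4. Replicate 1 of the group lacking PNMA4 was the highest library and wild type 1 the lowest. The group means were 24.5 ± 4.64 and 24.8 ± 5.47 CPM (SD, n = 3 each), with a log2 fold change of 0.0036 and a 95% interval from −0.48 to 0.49.

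Crem was the steadiest of the 9. CREM is the activator of late spermatid genes, and the same gene also encodes repressor isoforms such as ICER, which a count per gene does not separate. Crem (ENSMUSG00000063889, chromosome 18, 3266354 to 3337773) stood at 37.6, 33.9 and 46.1 CPM in wild type 1 to 3, at 34.3 and 37.0 CPM in the Pnma4 knockouts and at 42.1 CPM in the double knockout. Its highest library was 1.36 times its lowest, where this ratio reached 2.07 for Taf7l. The means were 39.2 ± 6.25 and 37.8 ± 3.99 CPM (SD, n = 3 each), with a log2 fold change of 0.05 and a 95% interval from −0.38 to 0.49.

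The regulators related to the general transcription machinery and to chromatin also overlapped between groups. Tbpl1 (ENSMUSG00000071359, chromosome 10, 22703877 to 22732666) stood at 67.3, 50.4 and 77.6 CPM in wild type and at 69.2, 79.0 and 67.9 CPM without PNMA4. Wild type 2 was its lowest library, and the other 5 lay within 67.3 to 79.0 CPM. Its log2 fold change of −0.15 (95% interval −0.58 to 0.28) was the lowest of the 9, and it was 0.01 without wild type 2.

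Taf7l (ENSMUSG00000009596, chromosome X, 134460116 to 134476505), an X-linked relative of the TFIID subunit gene Taf7, had the fewest counts, 495 in all. It stood at 16.8, 12.2 and 19.1 CPM in wild type, at 10.2 and 16.7 CPM in the Pnma4 knockouts and at 21.1 CPM in the double knockout. The lowest and the highest library both lacked PNMA4, and wild type lay between them. The group means were 16.0 ± 3.52 and 16.0 ± 5.49 CPM (SD, n = 3 each), with the widest standard error of the 9, 0.27. Taf7l2, a related gene counted separately, stood at 58.7 ± 11.9 and 65.6 ± 7.55 CPM, and the values of both are uncertain where the counting split or dropped reads that they share.

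Brdt (ENSMUSG00000029279, chromosome 5, 107331116 to 107387061) stood at 149, 141 and 164 CPM in wild type and at 116, 172 and 167 CPM without PNMA4. Replicate 1 without PNMA4 was the lowest and replicate 2 the highest library, with wild type between them. The means were 151 ± 11.8 and 152 ± 30.7 CPM (SD, n = 3 each), and the log2 fold change was −0.01 with a 95% interval from −0.44 to 0.42. In the RefSeq table other genes overlap the spans of Rfx1, Rfx2, Rfx3, Crem, Tbpl1 and Brdt, and the strand setting of the counting is not given in the sources used here. Transcript lengths were not used here, so levels of different genes are not ranked against each other.

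**Figure D3:**
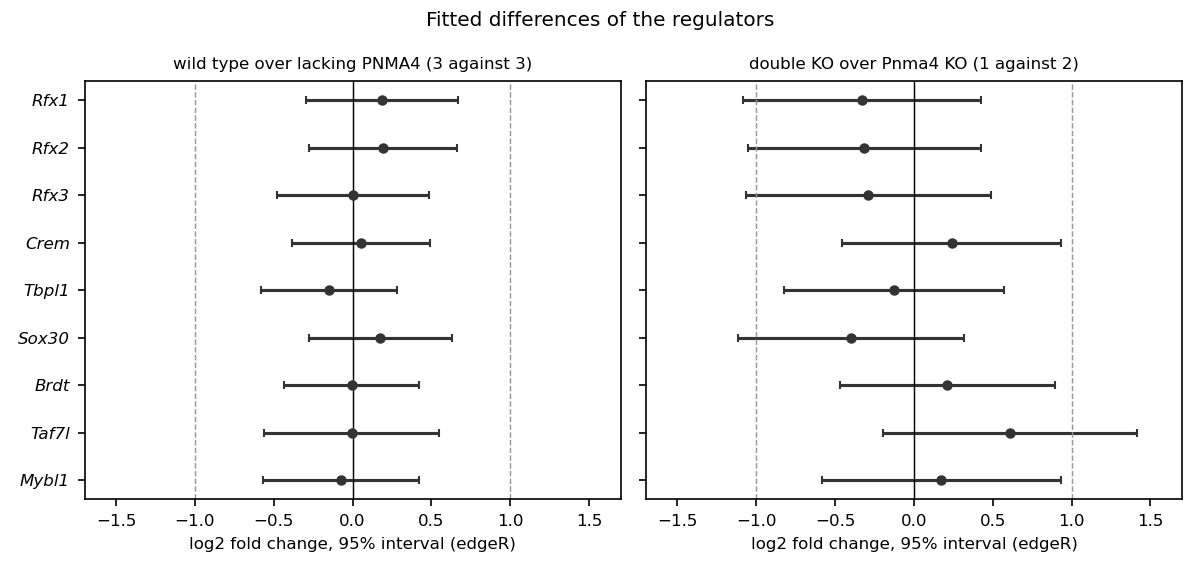
Fitted log2 fold changes (edgeR) of the 9 regulators with 95% intervals, for wild type over lacking PNMA4 on the left and for the double knockout over the Pnma4 knockouts on the right; dashed lines mark 2-fold. All intervals on the left lie within the dashed lines, and those on the right, which rest on 1 double knockout library, are wider and reach 1.41 for Taf7l.

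The 2 genotypes within the group lacking PNMA4 were compared after giving each of the 3 genotypes its own mean in the model, and the lone double knockout library was assumed to vary like the others. In this edgeR contrast 0 of 9 regulators passed (lowest adjusted p = 0.954), and 0.0746% of the 13413 genes passed. At an unadjusted p under 0.05 there were 0 of 9, beside 6.19% of all genes, and DESeq2 and limma-voom called 0 of 9. The difference was below 0 for 5 of 9, beside 50.5% of all genes. It was below 0 for 7 of 9 without replicate 1 of the group lacking PNMA4. Without scaling factors it was below 0 for 9 of 9, where the median of all genes moved by −0.76, and 5 of 9 lay below that median. Taf7l had the largest difference, a log2 fold change of 0.61 (double knockout over Pnma4 knockout, 95% interval −0.20 to 1.41), with 21.1 CPM against a mean of 13.4 CPM in the 2 Pnma4 knockouts. Sox30, Rfx1, Rfx2 and Rfx3 had values of −0.40, −0.33, −0.32 and −0.29, and Crem, Brdt and Mybl1 of 0.24, 0.21 and 0.17. Only 4 of the 9 intervals lay within 1 of 0, so a 2-fold difference between these genotypes was not excluded for the other 5. The somatic marker sums and the level of Kit in the double knockout library, given above, move with this contrast. Their part in it was not tested. In the same fit, wild type over the Pnma4 knockouts alone gave −0.19 for Tbpl1, 0.20 for Taf7l and 0.13 for Crem, with standard errors of 0.25, 0.29 and 0.25. Both comparisons share the Pnma4 knockout libraries.

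Other regulators of the same families also did not pass the test. Of 72 genes in 7 lists, 68 were tested with 0 past the threshold in edgeR and 0 at an unadjusted p under 0.05. Their log2 fold changes were positive for 41 and negative for 27, with a median of 0.04. In the RFX family and its partners, 7 of 7 tested genes had positive values with a median of 0.14, beside 52.0% of all genes tested. The 7 signs were the same under each scaling run. In limma-voom 6 of 7 were positive, and with 1 library left out 5 or 6 of 7 were. Examples are Rfx4 at 67.3 ± 12.2 and 58.7 ± 11.5 CPM and Rfx7 at 49.4 ± 12.5 and 44.8 ± 7.22 CPM (wild type and lacking PNMA4, SD, n = 3 each). The farthest from 0 was Rfxank, a subunit of the RFX complex that controls MHC class II genes, at 0.80 (95% interval −0.0030 to 1.61, edgeR adjusted p = 1.00).

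Among CREB and CREM relatives and coactivators, 6 of 10 tested were positive with a median of 0.07. Kif17, a kinesin that moves the CREM coactivator FHL5 (ACT) out of the spermatid nucleus, stood at 314 ± 85.8 and 286 ± 16.6 CPM, and Crebbp, a histone acetyltransferase, at 180 ± 14.1 and 154 ± 29.2 CPM. In the list of TBP relatives, TFIIA, TFIIB and TFIID, 9 of 21 tested were positive with a median of −0.04, Gtf2a1 standing at 119 ± 43.9 and 124 ± 25.9 CPM and Taf2 at 115 ± 22.1 and 107 ± 7.79 CPM. Tbpl2, the TBP relative of oocytes, had 0 counts in all 6 libraries, which allows up to 0.0959 CPM over the combined libraries, for counting error only. Myb, the relative of Mybl1 known from blood cells, had 10 counts in all and was not tested.

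The other bromodomain genes of the BET family had values of 0.04 to 0.13 in all 3 tested, with Brd2 at 328 ± 55.7 and 304 ± 43.0 CPM and Brd3 at 153 ± 27.3 and 148 ± 23.3 CPM. MYB relatives and subunits of the MuvB complex had a median of 0.08 over 6, with values of −0.28 for Rbbp4 (standard error 0.20) and 0.24 for Lin54. For 5 SOX relatives the median was 0.01, with Sox6 at 104 ± 19.1 and 89.8 ± 13.6 CPM and Sox5 at 37.2 ± 2.67 and 36.8 ± 2.59 CPM. For 16 further regulators of meiotic and haploid cells it was 0.0067, with the remodeller gene Chd5 at 706 ± 147 and 583 ± 167 CPM and a value of 0.31 for Zfp541, a zinc finger gene of meiotic cells.

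Genes that these regulators are known to control, or that belong to a class they regulate, were likewise without calls. In edgeR 0 of 35 passed the threshold, and 1 had an unadjusted p under 0.05. The 35 include Tcfl5, which is also in the list of further regulators. CREM target genes (5 of 9 positive, median 0.01) included Prm2, a protamine, at 355 ± 71.8 and 341 ± 53.4 CPM and Smcp, a protein of the sperm mitochondrial capsule, at 365 ± 76.3 and 335 ± 88.4 CPM. The lowest values in this list were those of Tnp1 (−0.46, 95% interval −0.97 to 0.05) and Prm1 (−0.43, −0.99 to 0.13). A-MYB target genes (4 of 11 positive, median −0.11) included Piwil1, a piRNA-binding protein, at 387 ± 36.0 and 317 ± 49.2 CPM and Tdrd6, a component of the chromatoid body, at 1561 ± 50.8 and 1460 ± 212 CPM. Cilium and flagellum genes of the kind that RFX proteins regulate (10 of 15 positive, median 0.07) included Ift172, of intraflagellar transport, at 525 ± 52.7 and 467 ± 61.1 CPM. One gene of this list, Dnah11, an axonemal dynein, had an unadjusted p under 0.05, with a log2 fold change of −1.34 (standard error 0.45, edgeR adjusted p = 1.00), and 66 of its 129 counts were in 1 Pnma4 knockout library.

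**Figure D4:**
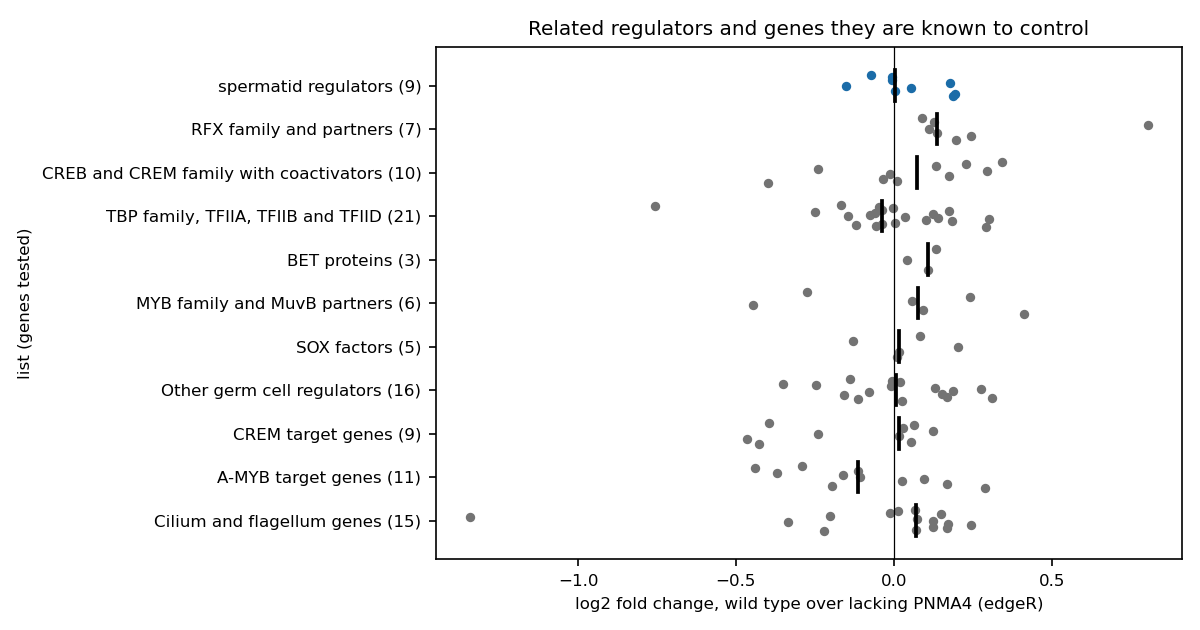
Log2 fold change (edgeR, wild type over lacking PNMA4) of each tested gene in the 9 regulators (blue) and in 10 lists (grey). The lists hold related regulators, known target genes and genes of a class that RFX proteins regulate. The number tested is in brackets, and the black bar is the median. List medians lie between −0.11 and 0.14, and single genes reach −1.34 (Dnah11) and 0.80 (Rfxank).

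The mean profile of the 9 regulators was close to flat, from −0.08 to 0.07 on the log2 CPM scale around the genes' own means. It averages deviations of opposite sign, which in wild type 2 ran from −0.43 for Tbpl1 to 0.58 for Rfx1. The tested genes with the smallest root mean square difference from this profile over the 6 libraries were Ckap2l (0.030 log2 units), Sox5 (0.035), Fryl (0.037), Ccser2 (0.037) and Uhrf1bp1l (0.038). Each of these 5 had group means that differed by less than 0.07 on the log2 scale. Likeness to a flat profile describes low spread of these 5 genes between libraries and nothing more.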

How the data were processed

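The authors deposited 1 table of raw counts, whole-number counts per Ensembl gene ID with a symbol. Tools named without roles were STAR 2.5.2b and bcl2fastq 2.20, per the submitters' processing notes. Settings for strand and for reads with several matches were not given there. All 6 columns were matched to libraries by name. The counts were tested with the edgeR 4.0.16 quasi-likelihood test in R 4.3.3 over the whole table, after filterByExpr (minimum count 10, minimum total 15) and TMM scaling, with Benjamini-Hochberg adjustment at 0.05 over 13413 genes. Standard errors were derived from log2 fold change and F statistic. Levels are in CPM after TMM scaling, and log2 CPM has a prior count of 2. No pair of libraries agreed within sampling noise (chi-square per gene at least 8.60). Alternatives were DESeq2 1.42.0, limma-voom (limma 3.58.1), other scalings, filters, a replicate block and leaving out each library. The members and lists were chosen with earlier results of these data known. Genes of lists were named where they passed the threshold, otherwise the 2 with the highest mean CPM, and further ones after their values were seen. One gene named by this rule is not reported here. The 5 genes nearest to the members' mean profile were named by root mean square difference. Each library is 1 lysate of pooled testes, called a biological replicate in the design text. Intervals cover the spread between these libraries, as edgeR estimates it with information shared across genes.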

Additional observations from a re-analysis of the deposited data

How the results depend on the processing

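In 15 alternative settings, 0 of the 9 regulators passed the threshold in either comparison in each setting that gave it, and the lowest adjusted p of wild type against lacking PNMA4 was 0.490 (without wild type replicate 3). The count of all genes called was 8 as reported, 31 with no filter on low counts and 2 with a mean of at least 50 counts. The median log2 fold change of the 9 moved from 0.0036 to 0.33 without scaling factors, where the median of all genes tested moved by 0.30, so relative to all genes it was 0.016. Without scaling factors the lowest adjusted p of the 9 between the knockout genotypes was 0.122, and the median of all genes in that contrast moved by −0.76. Of 135 values of single regulators, 31 had the opposite sign, and none of these was called. Without scaling factors these were Tbpl1 (0.12), Brdt (0.31), Taf7l (0.33) and Mybl1 (0.23). With upper-quartile scaling they were Brdt (0.0072) and Taf7l (0.0069), and with no filter Brdt (0.0084) and Taf7l (0.0071). Rfx3 was −0.0056 with a mean of at least 50 counts and −0.053 in limma-voom. With 1 library left out, log2 fold changes lay in these ranges: Rfx1 −0.11 to 0.42, Rfx2 −0.042 to 0.38, Rfx3 −0.094 to 0.19, Crem −0.075 to 0.16, Tbpl1 −0.30 to 0.012, Sox30 −0.054 to 0.31, Brdt −0.16 to 0.096, Taf7l −0.23 to 0.20 and Mybl1 −0.43 to 0.10. The replicate numbers showed no sign of pairing: same-numbered libraries had deviations correlated at 0.04, −0.06 and 0.08, and other pairs at −0.19 to 0.19. So few libraries cannot exclude a pairing. With the replicate block, 7 genes were called, 0 of them among the 9, and Brdt was 0.010. The block could not be fitted for the contrast of the 2 knockout genotypes, which has 1 double knockout library. As CPM of the total count, the wild-type mean of Brdt was 169. Depth limits Taf7l most, with 32 to 124 counts per library.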

Other observations

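The lists of related regulators, targets and target classes held 102 distinct tested genes. Of these, 4 (3.92%) had groups that did not overlap, beside 6.69% of all 13413 genes tested. None of the 4 passed the edgeR test. They were Ep300, with wild type above, and Odf1, Rbbp4 and Spag6l, with wild type below. Ep300, a histone acetyltransferase and coactivator of CREB proteins, stood at 134, 147 and 143 CPM in wild type 1 to 3 and at 114, 123 and 97.3 CPM in replicates 1 to 3 without PNMA4 (log2 fold change 0.34, edgeR adjusted p = 1.00). Odf1, an outer dense fibre gene known as a CREM target, stood at 207, 201 and 200 CPM in wild type and at 253, 245 and 220 CPM without PNMA4 (log2 fold change −0.24, edgeR adjusted p = 1.00). These genes were named after their values were seen.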
